A study of Mus musculus with 3 samples.

Results

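Flrt1 to Flrt3, Adgrl1 to Adgrl3 and Tenm1 to Tenm4 encode FLRT proteins, latrophilins and teneurins, 3 families of adhesion proteins that meet at synapses. These 10 genes were taken by symbol from the 31040 genes of a single-nucleus RNA sequencing table of the mouse lumbar spinal cord, and all 10 were found. The set was built around Flrt2, a gene chosen by its measured values, namely the genotype difference in summed UMIs, because its level was lower in the dorsal excitatory neurons of SOD1G93A mice. The genotype comparison in those neurons is therefore a description here and carries no test.

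The study compared 6 SOD1G93A mice, of the strain B6.Cg-Tg(SOD1*G93A)1Gur/J, with 6 wild-type (WT) C57BL/6J littermates, all aged 90 days. SOD1G93A mice carry many copies of a human SOD1 transgene with a mutation of familial amyotrophic lateral sclerosis, driven by the human SOD1 promoter and active in many cell types, and the WT mice carry none. Each genotype had 3 females and 3 males, and each of 3 pools (A, B and C) held 1 mouse of every sex and genotype, told apart by antibody hashtags. The same hashtag marked the same sex and genotype in every pool, so that hashtag and group cannot be told apart.

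In all, 14662 nuclei with 206486779 unique molecular identifiers (UMIs, tags of single captured RNA molecules) were deposited, with 548 to 2259 nuclei and 6411715 to 36668441 UMIs per mouse, and 15 cell barcodes occurred in more than 1 pool. Levels are given as UMIs scaled to a total of 1000000 UMIs of a population in a mouse (CPM). As a check of the labels, Sod1 over all nuclei was 31.2 to 106 CPM in WT mice (median 41.9) and 174 to 594 in SOD1G93A mice (median 245), with no overlap. Cell types and neuron sub-types are those deposited: dorsal (DE, DI), mid (ME, MI) and ventral (VE, VI) excitatory and inhibitory neurons, ventral cholinergic neurons other than motor neurons (VC), ventral mixed neurons (VM) and neurons of unclear sub-type. The 9 markers of dorsal excitatory neurons summed to 1539 CPM in WT DE neurons and to 112 to 405 in the other 8 sub-types. Nuclei labelled microglia go against their label, with 106 CPM of 4 microglial markers but 2959 of 4 oligodendrocyte markers and 1865 of 3 neuron markers in WT mice, and nuclei labelled Schwann and meningeal held 142 CPM of their own 3 markers beside 5960 and 4411 of those 2 marker sums. The few WT nuclei labelled fibroblasts held 301 CPM of 3 fibroblast markers but 1672 of the oligodendrocyte and 1026 of 4 astrocyte markers, and the fibroblast markers ranged from 0 to 619 CPM over WT mice and from 175 to 10653 CPM over SOD1G93A mice, which overlap.

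FLRT proteins are single-pass membrane proteins with leucine-rich repeats, and they bind latrophilins, UNC5 receptors and each other. Latrophilins, encoded by the Adgrl genes, are adhesion G protein-coupled receptors, first found as receptors of the black widow toxin α-latrotoxin. Teneurins are large transmembrane proteins that bind latrophilins across the synaptic cleft and help to match partner neurons. A FLRT protein and a teneurin on one cell can engage the same latrophilin on another, so that the families act together in synapse formation.

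The 250 bases upstream of the transcription start are shown for Flrt2, the gene that the genotype results turn on, and for its paralogue Flrt3, which was called in no genotype test. Both are from RefSeq (GRCm38.p6), run 5′ to 3′ on the gene's strand and have every CpG in capitals. The first lies at chr12:95691976-95692225 on the plus strand and the other at chr2:140671477-140671726 on the minus strand.
Flrt2: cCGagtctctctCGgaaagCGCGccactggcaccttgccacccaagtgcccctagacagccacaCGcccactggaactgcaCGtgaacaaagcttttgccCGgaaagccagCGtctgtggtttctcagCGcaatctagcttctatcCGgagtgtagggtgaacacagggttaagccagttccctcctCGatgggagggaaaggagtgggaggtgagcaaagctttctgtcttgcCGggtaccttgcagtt
Flrt3: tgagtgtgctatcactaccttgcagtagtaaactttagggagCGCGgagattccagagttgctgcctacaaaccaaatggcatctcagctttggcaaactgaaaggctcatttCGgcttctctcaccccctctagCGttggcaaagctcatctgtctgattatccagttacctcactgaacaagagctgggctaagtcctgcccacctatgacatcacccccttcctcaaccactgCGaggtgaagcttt
The Flrt2 window had 12 CpGs and 57.2% G+C, that of Flrt3 had 5 CpGs and 50% G+C, and the medians over 32851 promoters were 6 CpGs and 52.4%. Neither window held the GC box GGGCGG or the TATA box TATAAA on either strand, which 32.74% and 12.37% of windows of this length held. Of the 10 genes, 9 had a promoter in the reference, in 12 windows. Adgrl1 and Adgrl3 were the 2 genes with the GC box motif, and Adgrl2, Adgrl3 and Tenm1 the 3 with the TATA box motif, on either strand. The windows of these last 3 genes lie inside the gene as annotated, before a RefSeq start within it. That of Adgrl2 covers 148954636 to 148954885 in a gene of 148815583 to 148990555. That of Tenm1 covers 43274785 to 43275034 in a gene of 42527866 to 43429126. Whether these starts are used in these nuclei was not tested. Flrt1 was not matched.

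Flrt2 lies on chromosome 12 (95692226 to 95785215, plus strand, GRCm38) and is 93.0 kb long. The shortest of the 10 is Flrt1, at 13.7 kb, and the longest Tenm2, at 1229 kb. A Flrt2 UMI was found in 47.2% of all nuclei. The strand setting of the counting is not given in the sources used here, and every one of the 10 genes other than Flrt2 and Tenm3 overlaps a measured gene on the opposite strand (Macrod1 for Flrt1 and Macrod2 for Flrt3, for example), so that their levels may hold reads of that gene. Fold changes are log2 values of SOD1G93A over WT from limma voom, fitted within each population with sex-genotype group and pool as terms. A gene was called at a false discovery rate (FDR) under 0.1 over all genes tested in that population. With nuclei pooled per mouse, fewer nuclei expressing a gene and less RNA per nucleus cannot be told apart.

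In DE neurons, Flrt2 was 135 to 188 CPM in WT mice (median 154) and 74.9 to 103 CPM in SOD1G93A mice (median 97.6). All 6 SOD1G93A mice lay below all 6 WT mice, and each was below the WT mouse of its sex and pool. The means were 158 ± 19.8 and 94.3 ± 10.1 CPM (SD, n = 6 each) and the log2 difference was −0.76, with −0.80 in females and −0.71 in males. Of the 10 genes, Flrt2 alone passed the threshold in DE neurons, where 0.0329% of 12175 genes did, and nothing is read from this count since the gene was chosen for it. In all neurons together, which contain the DE neurons, Flrt2 was 136 to 179 CPM in WT mice and 93.2 to 124 CPM in SOD1G93A mice. It did not pass the threshold there, and nothing is read from that, since these sums hold the values it was chosen for.

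Flrt2 was also read in the deposited types within the DE neurons, as the plot of Flrt2 in finer groups shows. The types divide the UMIs that Flrt2 was chosen by, so that a lower level in most of them follows from the choice. The counts of lower types and pairs are a description, and nothing is read from them. With the nuclei of all mice of a genotype summed, Flrt2 was lower in SOD1G93A mice in 14 of 16 types that held at least 50 nuclei. By mouse, most pairs of the same sex and pool were lower in 11 of the 16 types, and in DE_11, which counts as lower, the levels were 28.3 and 28.2 CPM with 3 of 6 pairs lower. The type DE_9, with the highest WT level, had 497 CPM in WT and 273 CPM in SOD1G93A nuclei, whereas DE_2, with the lowest, had 15.7 and 33.2 CPM. The shares of the types also differed between the genotypes. DE_9 held 7.55% of the mapped DE nuclei in WT and 5.16% in SOD1G93A mice, and DE_2 held 6.46 and 10.0%. Not every type with a high level fell, since DE_7, at 319 CPM in WT nuclei, held 5.79 and 6.13%. With every type given the same share in both genotypes, the level was 148 CPM in WT and 102 CPM in SOD1G93A mice. These are levels of the summed nuclei of the mapped types. The means given above are over mice and all DE neurons, so that they are not like for like. The part of the shares in the DE difference was not tested.

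**Figure D1:**
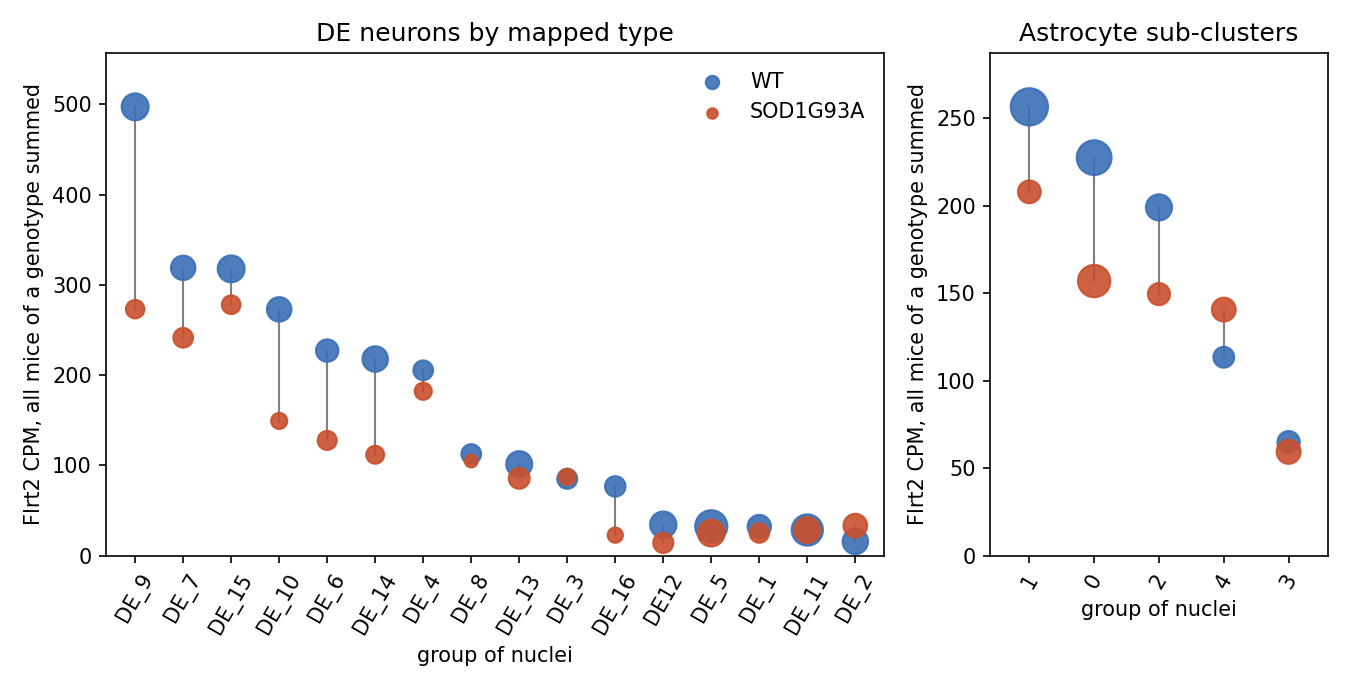
Flrt2 in CPM, summed over all mice of a genotype, in the mapped types of DE neurons (left) and in the deposited astrocyte sub-clusters (right), with larger points for more nuclei and a line joining the genotypes. SOD1G93A points lie below WT points in 14 of 16 types of DE neurons and in 4 of 5 astrocyte sub-clusters. Flrt2 was chosen for its fall in DE neurons, so that the counts over their types follow from that choice. Most pairs of mice are lower in 11 of the 16 types and in 3 of the 5 sub-clusters. The 11 include DE_3, whose SOD1G93A point lies above its WT point (87.2 and 85.0 CPM).

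Leaving all neurons together aside, astrocytes, the glia that take up transmitter and enwrap synapses, were the one deposited cell type with a called change of Flrt2. Differences between cell types in the size of the change were not tested. Flrt2 was 184 to 272 CPM in WT astrocytes (median 204) and 105 to 155 CPM in SOD1G93A mice (median 139.8), with no overlap and with 6 of 6 SOD1G93A mice below their WT partner in sex and pool. The means were 219 ± 35.9 and 137 ± 17.8 CPM (SD, n = 6 each) from 1161 and 608 Flrt2 UMIs, a log2 change of −0.71 (SE 0.14, limma FDR 0.00904). Flrt2 was 1 of 10 genes of the set called in astrocytes, where 2.29% of 9347 genes were called. The log2 value was −0.77 in females (SE 0.20) and −0.65 in males (SE 0.18), and the difference between the sexes was 0.13 (SE 0.27), which was not called.

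The make-up of the astrocytes also differed between the genotypes. Sub-cluster 1, which had the highest Flrt2 level at 257 CPM in WT nuclei, held 26.9 to 42.6% of the astrocytes of a WT mouse but 4.81 to 21.6% of those of an SOD1G93A mouse. Sub-cluster 3, which had the lowest level at 64.8 CPM, held 7.56 to 12.0% and 13.4 to 31.1%, also without overlap, and the shares of the other 3 overlapped. Within the sub-clusters no change of Flrt2 was called: the log2 values were −0.53 in sub-cluster 0 (SE 0.22, limma FDR 0.809), −0.30 in sub-cluster 1 (SE 0.23, FDR 0.858), −0.36 in sub-cluster 2 (SE 0.23, FDR 0.951) and 0.42 in sub-cluster 4 (SE 0.33, FDR 0.981), and sub-cluster 3 held too few UMIs. With the sub-clusters at the same shares in every mouse, Flrt2 was 187 to 257 CPM in WT and 132 to 198 CPM in SOD1G93A mice, which overlap. The difference between mice of the same sex and pool was then −54.7 ± 35.4 CPM (SD, 6 pairs, 6 of 6 lower), beside −81.4 ± 42.6 CPM without that step. The sub-clusters were made by the authors from the same nuclei, and these values were computed after the astrocyte result was known.

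Other measures moved with genotype in the astrocytes. The mean mitochondrial percent of UMIs was 1.34 to 1.84 in WT mice and 2.20 to 2.82 in SOD1G93A mice, with no overlap. The 4 oligodendrocyte markers summed to 1090 to 1722 CPM in WT and 1578 to 3037 CPM in SOD1G93A astrocytes, the 3 neuron markers to 563 to 913 and 602 to 1379 CPM, and the 4 astrocyte markers to 5504 to 6918 and 6549 to 8465 CPM. Their part in the Flrt2 result was not tested. In DE neurons the mitochondrial percent was 0.353 to 0.535 in WT and 0.344 to 0.533 in SOD1G93A mice, and the 9 markers of dorsal excitatory neurons summed to 1539 and 1649 CPM on average, whereas the oligodendrocyte markers summed to 399 and 590 CPM.

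Per nucleus, a Flrt2 UMI was found in 52.1% of 927 WT and 41.9% of 628 SOD1G93A astrocytes, and in 48.9% of 2004 and 38.5% of 1085 DE neurons. Thinned to 2000 UMIs per nucleus, with 47 and 29 astrocytes and 11 and 17 DE neurons too shallow to enter, the shares were 29.9 and 21.9% in astrocytes and 21.4 and 14.1% in DE neurons. In oligodendrocytes, in which Flrt2 was low, the thinned shares were 4.88 and 2.99%, at median depths of 6262.5 and 5299 UMIs beside 5219 and 5554.5 in astrocytes and 10070.5 and 10303 in DE neurons. The thinned share was also lower in SOD1G93A mice in every other neuron sub-type, such as DI (20.9 and 13.9%), VI (27.2 and 19.6%) and VM (24.8 and 23.8%). It was higher in motor neurons (5.95 and 6.73%), ependymal cells (22.1 and 23.0%) and nuclei labelled fibroblasts (50.7 and 58.5%).

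In the neuron sub-types other than DE, Flrt2 was not called, and its log2 value was below 0 in all 8. All sub-types come from the same mice, so that these signs are not independent of each other. In ventral inhibitory neurons it was 149.6 to 205 CPM in WT mice (median 164) and 78.1 to 129 CPM in SOD1G93A mice (median 111), and the change was not called (log2 −0.62, SE 0.13, limma FDR 0.146). In dorsal inhibitory neurons it was 116 to 191 CPM and 75.4 to 131 CPM (log2 −0.60, FDR 0.300), and in mid inhibitory neurons 176 to 282 CPM and 102 to 194 CPM (log2 −0.57, FDR 0.200). Ventral excitatory neurons had 125 to 179 CPM in WT and 83.9 to 149.9 CPM in SOD1G93A mice (log2 −0.41, FDR 0.577). In these 4 sub-types and in the unclear neurons every SOD1G93A mouse was below the WT mouse of its sex and pool. The value was −0.37 in ME, −0.31 in VC, −0.27 in unclear and −0.02 in VM neurons, and differences between the sub-types in these values were not tested.

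**Figure D2:**
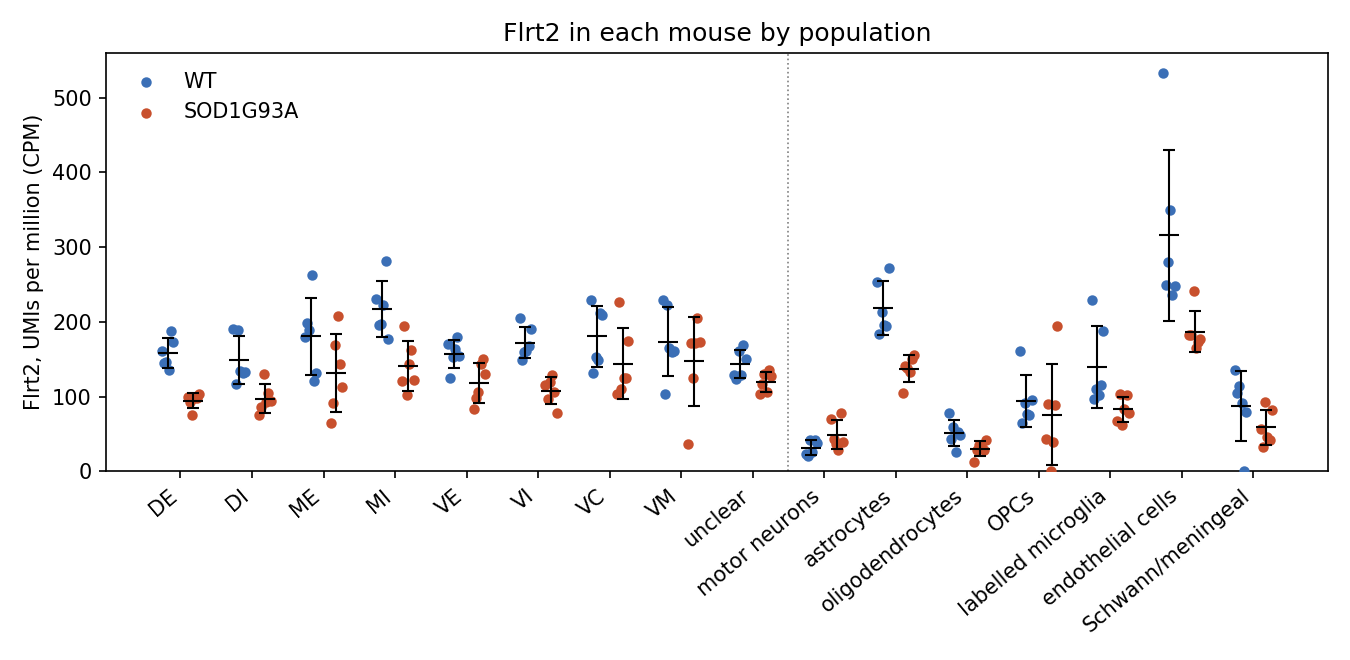
Flrt2 in CPM for each of 12 mice in the 9 neuron sub-types (left of the dotted line) and 7 other cell types, with WT in blue, SOD1G93A in red and the mean and SD of 6 mice in black. The genotypes do not overlap in DE neurons, ventral inhibitory neurons and astrocytes, though Flrt2 was not called in ventral inhibitory neurons. Motor neurons have the lowest WT mean, at 31.8 CPM.

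Among the other cell types no call was made for Flrt2. In endothelial cells it was 236 to 533 CPM in WT mice (median 264) and 166 to 241 CPM in SOD1G93A mice (median 179), lower in 6 of 6 pairs (log2 −0.69, SE 0.17, limma FDR 0.849). Oligodendrocytes had 26.0 to 78.1 CPM and 12.3 to 42.6 CPM (log2 −0.71, FDR 0.954). Motor neurons went the other way, at 20.2 to 41.9 CPM in WT and 28.9 to 77.5 CPM in SOD1G93A mice (log2 0.60, FDR 0.392), from 80 and 69 Flrt2 UMIs in 44 and 23 nuclei. Values for the remaining types were −0.70 in nuclei labelled Schwann and meningeal, −0.50 in nuclei labelled microglia, −0.25 in oligodendrocyte precursors (OPCs) and 0.77 in nuclei labelled fibroblasts (SE 0.76), where the medians over mice went the other way (1023 CPM in WT and 921 CPM in SOD1G93A mice), with mice at 0 CPM among the first, OPCs and the last.

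Across the other 9 genes, a low count left some untested: Flrt1 in motor neurons, ME, VC and VM, Flrt1 and Flrt3 in endothelial and in Schwann and meningeal nuclei, and 7 of the 10 genes in ependymal cells (Flrt2 among them) and in fibroblasts. Outside the DE neurons, all neurons together and astrocytes, 138 tests of the 10 genes were made and 0 were called by limma. In the 8 other cell types 0.396% of all tests were called, against 0 of 61 of the set, of which 7 had an unadjusted p under 0.05 (3 of them Flrt2), as had 6.89% of all tests. In the 8 other sub-types 0.0237% of all tests were called, against 0 of 77, of which 9 had an unadjusted p under 0.05 (5 of them Flrt2), as had 4.12% of all tests. In the same sub-types edgeR and DESeq2 each called 1, Flrt2 in ventral inhibitory neurons.

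The latrophilin Adgrl3 was 2141 to 2493 CPM in WT astrocytes (median 2367) and 1777 to 2171 CPM in SOD1G93A astrocytes (median 2106), and it was not called (log2 −0.28, SE 0.10, limma FDR 0.199). The highest SOD1G93A value lay just above the lowest WT value. Adgrl1 and Adgrl2 had log2 values of −0.13 and −0.10 there, and the 3 latrophilins had −0.22 to 0.20 in the neuron sub-types apart from VC, where Adgrl2 had −0.34 and Adgrl3 −0.25. Of the FLRT genes, Flrt3 had values of −0.11 to 0.11 over the sub-types, and Flrt1 reached 0.68 in ventral inhibitory neurons, at 11.4 to 22.0 CPM in WT and 14.2 to 38.2 CPM in SOD1G93A mice (FDR 1.00).

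The teneurin Tenm3 was 714 to 1403 CPM in WT motor neurons (median 1060) and 108 to 1236 CPM in SOD1G93A motor neurons (median 684), a wide overlap (log2 −0.83, SE 0.30, limma FDR 0.195). A WT mouse had 4 to 11 motor neuron nuclei and an SOD1G93A mouse 1 to 6, with 27658 UMIs in the mouse that had 1. The mean mitochondrial percent of their UMIs was 0.0770 to 0.947 in WT mice and 0.0578 to 2.63 in SOD1G93A mice, 4 of which lay above every WT mouse, and its part in the values of motor neurons was not tested. Without the filter on low counts Tenm3 and Adgrl3 were called in motor neurons, and without the 5% of nuclei with most UMIs Tenm3 was. Tenm2 was below WT in 9 of 9 sub-types by a small amount, from −0.06 in VE and DI to −0.18 in ME and VC, and none of the 8 tested outside DE was called. These signs are not independent of each other, since the sub-types come from the same mice. In ventral excitatory neurons Tenm1 was 704 to 788 CPM in WT and 585 to 702 CPM in SOD1G93A mice, and it was not called (log2 −0.19, SE 0.07, FDR 0.999). The log2 values of Tenm4 lay between −0.09 and 0.17 over the sub-types.

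**Figure D3:**
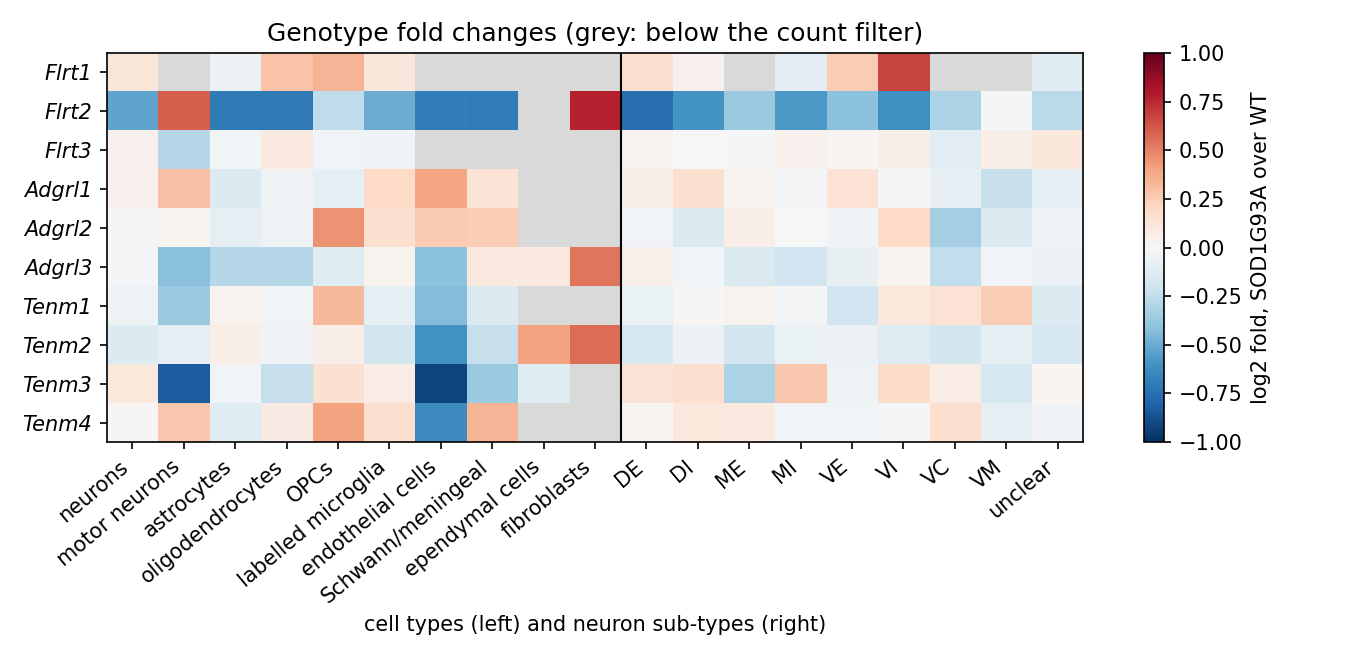
Log2 fold of SOD1G93A over WT for the 10 genes (rows) in 10 cell types and 9 neuron sub-types (columns), on a colour scale from −1 to 1, with grey for genes below the count filter. The Flrt2 row is below 0 in all 9 sub-types and above 0 in motor neurons and in nuclei labelled fibroblasts, where the medians in CPM went the other way.

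Sex and its interaction with genotype gave 0 calls by limma among 168 tests of the 10 genes each, where 0.125% and 0.0436% of all tests were called. An unadjusted p under 0.05 was found in 11 and 10 of them, as in 5.13% and 3.62% of all tests. Tenm1, which is on the X chromosome, had log2 values of females over males of −0.16 to 0.22 in the sub-types and −0.98 in endothelial cells (SE 0.28, limma FDR 0.384). Flrt3 was lower in females in 9 of 9 sub-types, by −0.01 to −0.42, without a call. The sub-types come from the same mice, so that these signs are not independent of each other.

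Partners outside the 3 families were also read. The list of 11 held, among others, the receptors Unc5a to Unc5d, Fgfr1 and Robo1, which FLRT proteins bind, the presynaptic Nrxn2 and Nrxn3, the contactin Cntn6 and the endothelial relative of latrophilins Adgrl4, and 0 of its 163 genotype tests were called, where 0.285% of all genotype tests in the same populations were. In DE neurons Unc5c was 991 to 1158 CPM in WT mice, with a log2 difference of −0.01, and Unc5d had 0.06, Fgfr1 0.11 and Robo1 −0.10. Nrxn2 had 0.11 and Nrxn3 −0.04, and the median of the 11 was −0.01, beside 0.0042 over all genes. In motor neurons, where 8 of the 11 passed the filter, Unc5c had −0.19, Unc5d −0.13, Robo1 −0.42 and Nrxn3 0.41, each with an FDR above 0.1, whereas Unc5a and Unc5b, which were not tested there, reached at most 36.2 and 22.8 CPM in a mouse.

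Of 25 other synaptic adhesion genes, 2 were lower in 359 genotype tests, both in motor neurons, where 17 of the 25 were tested and 3.07% of all 5118 genes were called. Lrrtm3, a postsynaptic partner of neurexins, was 1177 to 1454 CPM in WT mice (median 1339) and 651 to 1265 CPM in SOD1G93A mice (median 941), with log2 −0.65 (SE 0.17, limma FDR 0.0648). Lrrc4c, a netrin-G ligand, was 4106 to 6622 CPM (median 5329) and 3396 to 5279 CPM (median 3716), with log2 −0.56 (SE 0.15, FDR 0.0683). For each gene 1 SOD1G93A mouse lay above the lowest WT mouse, and the level was lower in 5 and 6 of 6 pairs. The median of the 17 genes of the list tested in motor neurons was −0.28, beside 0.0020 over all genes, and 15 of the 17 were not called. The higher mitochondrial percent and the few nuclei given above apply to these values too. With each mouse left out in turn, Lrrtm3 was called in 6 and Lrrc4c in 5 of 12 fits, and neither without the SOD1G93A mouse that had 1 nucleus (log2 −0.53, limma FDR 0.135, and −0.48, FDR 0.154). Both calls were also lost with edgeR, with a minimum count of 30 and without the pool term. Of the interaction tests, 1 of 163 and 1 of 359 in these lists were called, beside 0.0436% for all genes. In unclear neurons the genotype effect in males minus that in females was 0.56 for Nrxn3 (SE 0.12, limma FDR 0.0574) and −0.81 for Il1rap, an adhesion partner of receptor phosphatases (SE 0.19, FDR 0.0899), and these calls were kept in 5 and 4 of 12 fits with a mouse left out.

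How the genes divide the neurons was read in the 6 WT mice, with each sub-type set against the mean of the others and the mouse as a term. Of 90 such contrasts 38 were called, 23 higher and 15 lower, beside 23.9% of those of all genes. Teneurins, which guide the matching of neurons, each had an order of their own. Tenm3 was high in the dorsal horn, at 1152 to 1466 CPM in DI (median 1379) and 1137 to 1574 CPM in DE neurons (median 1253), and low in MI neurons, at 456 to 942 CPM (median 607). The log2 values against the other sub-types were 0.75 (SE 0.10), 0.69 (SE 0.10) and −0.59 (SE 0.12), each called, and DI and DE neurons did not overlap with MI neurons.

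Tenm2 had another order. It was 3490 to 5521 CPM in ME (median 4553) and 3917 to 4941 CPM in VE neurons (median 4351), and 2091 to 2615 CPM in DE (median 2321) and 1842 to 2294 CPM in VC neurons (median 2181). The values were 0.39 (SE 0.05), 0.41 (SE 0.04), −0.57 (SE 0.04) and −0.73 (SE 0.05), all called, and the 6 mice of the lower pair of sub-types all lay below those of the upper pair. Tenm1 was 840 to 1029 CPM in DE (median 945) and 399 to 596 CPM in DI neurons (median 533), with every DE value above every DI value (log2 0.39 and −0.56, SE 0.07 each), and it was also high in ME, VC and MI and low in VI neurons. Tenm4 varied least among the teneurins, from a mean of 1170 ± 221 CPM in VM to 841 ± 127 CPM in VC neurons (SD, n = 6).

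Among latrophilins, Adgrl2 was 309 to 396 CPM in ME (median 370.3), 283 to 363 CPM in DE (median 341) and 163 to 206 CPM in VI neurons (median 181). Adgrl3 was 2221 to 2588 CPM in DE (median 2343) and 1610 to 1853 CPM in VI neurons (median 1699). Both were higher in DE than in the other sub-types (log2 0.48, SE 0.06, and 0.34, SE 0.03) and lower in VI neurons (−0.56, SE 0.07, and −0.23, SE 0.04), where the mice did not overlap with those of DE neurons. Adgrl1 was higher in DE and DI neurons, by 0.32 and 0.29. Adgrl1 and Adgrl3 had their highest mean in DE neurons and Adgrl2 its next highest, after ME neurons, and the lowest means were those of VE neurons for Adgrl1 and of VI neurons for the other two.

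**Figure D4:**
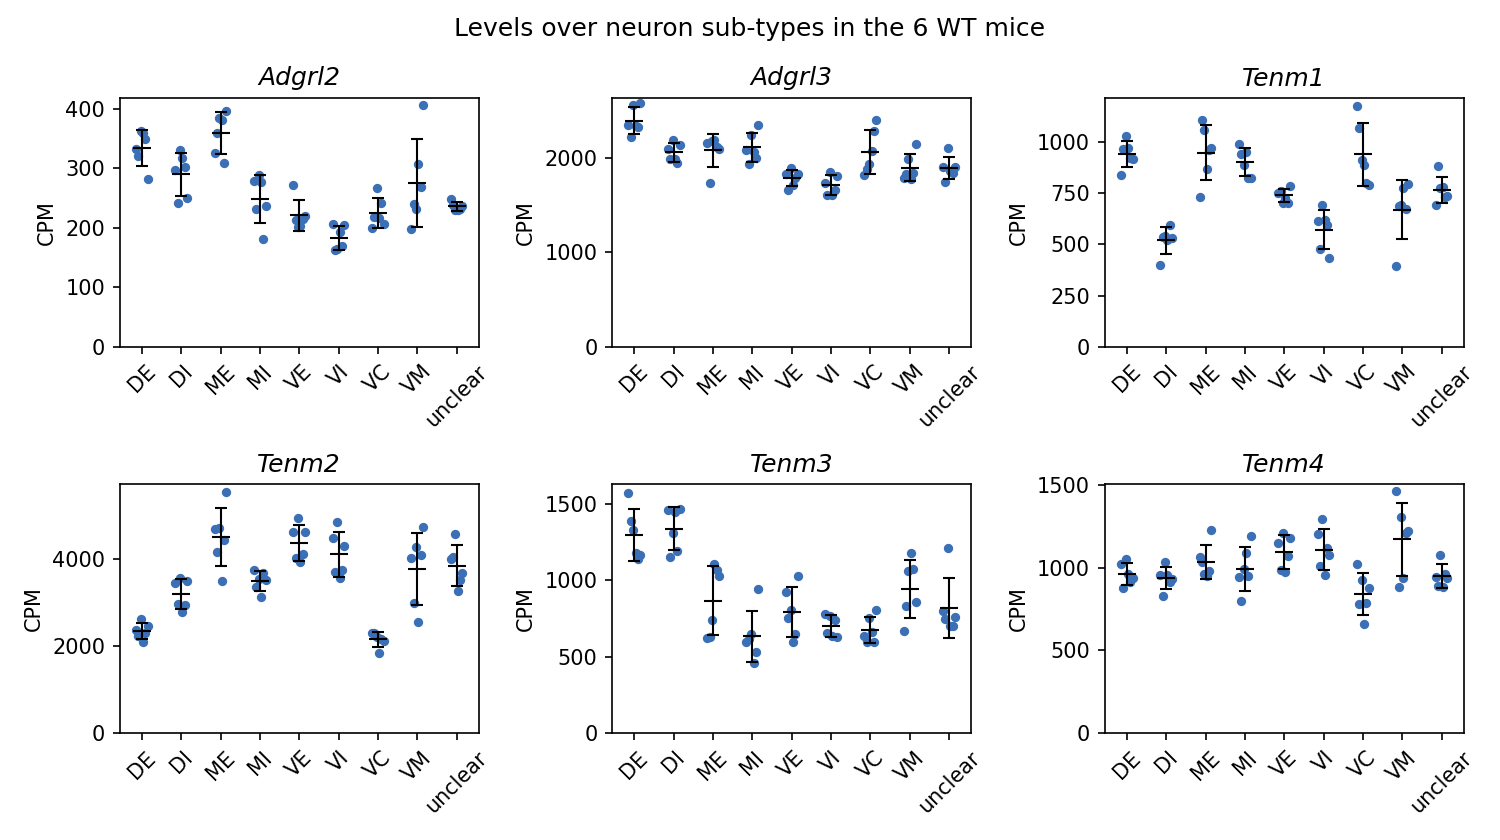
Levels in CPM of Adgrl2, Adgrl3 and the 4 teneurins in the 9 neuron sub-types, with a point per WT mouse and the mean and SD of 6 mice in black. Tenm3 is high in DE and DI neurons, Tenm2 is low in DE and VC neurons, and Tenm1 is low in DI and VI neurons.

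Flrt1 and Flrt2 had 2 called contrasts each of 9 and Flrt3 had 1. Flrt2 was 176 to 282 CPM in MI neurons (median 210.1), higher than in the other sub-types (log2 0.44, SE 0.10, limma FDR 0.00112), and lower in unclear neurons (−0.28). Its WT level in DE neurons lay at a log2 value of −0.06 from the other sub-types. That value is a description, since Flrt2 was chosen by its levels there. Flrt1 was higher in DI (0.54) and lower in ME neurons (−0.78), and Flrt3 was higher in VI neurons (0.30).

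Most neighbours in the order of levels were not called apart. Of 80 neighbouring pairs of sub-types 6 were called, beside 22.8% of the tests of all genes in the same pairs, which were picked as neighbours. They were Adgrl2 in DE against DI neurons, Adgrl3 in DE against MI and in DI against VM neurons, Tenm2 in DI against DE, Tenm3 in DE against VM and Tenm4 in DI against VC neurons. For Flrt1 to Flrt3, Adgrl1 and Tenm1 no neighbouring pair was called, so that their orders are not resolved step by step. In the 6 SOD1G93A mice all 38 called contrasts had the same sign, and 20 of them were called there too.

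Over the cell types, the 8 with nuclei in every mouse were compared in the same way. Of 80 contrasts 63 were called, 37 higher and 26 lower, beside 64.1% of those of all genes. The median log2 value of all genes was −0.18 in endothelial cells, −0.13 in motor neurons, −0.11 in oligodendrocytes and 0.13 in nuclei labelled microglia, and the values below are to be read relative to it. The 4 teneurins were lowest in endothelial cells, by −3.09 to −3.33. Tenm2, for example, was 89.7 to 590 CPM there (median 200.3) and 2972 to 3779 CPM in neurons (median 3399), without overlap. Tenm1, Tenm2 and Tenm4 were highest in neurons (1.82, 1.79 and 1.61) and Tenm3 in motor neurons (1.72), and of these only Tenm4 was called against the next cell type in the order.

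The FLRT genes each had their highest mean in another cell type. Flrt1 was 35.0 to 65.5 CPM in astrocytes (median 45.6; log2 1.73, SE 0.20), Flrt2 was high in endothelial cells (1.34, SE 0.14) and astrocytes (1.14, SE 0.14), whose difference from each other was not called, and Flrt3 was 47.4 to 70.6 CPM in motor neurons (median 59.3; log2 1.73, SE 0.19). Flrt2 had its lowest mean in motor neurons (−1.63, SE 0.21), where Flrt3 was highest, but its difference from oligodendrocytes was not called, and Flrt3 was lowest in endothelial cells, at 0 to 14.0 CPM. The Flrt2 and Flrt3 values in motor neurons rest on 80 and 151 UMIs in WT mice.

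Among the latrophilins, Adgrl2 was 332 to 573 CPM in endothelial cells (median 435; log2 1.26, SE 0.15) and 50.6 to 121 CPM in oligodendrocytes (median 64.9; −1.20, SE 0.15), without overlap. Adgrl3 was 2141 to 2493 CPM in astrocytes and 585 to 1021 CPM in oligodendrocytes (median 861). Adgrl1 was highest in the nuclei labelled Schwann and meningeal, 102 to 182 CPM (median 137), and in astrocytes, 96.1 to 112 CPM (median 106), which were not called apart. Of 70 neighbouring pairs of cell types 29 were called, beside 58.8% for all genes in those pairs. The order is by mean CPM, and in the fit some called pairs went against it. They were Adgrl3 in endothelial cells against motor neurons (log2 −0.65) and Tenm4 in nuclei labelled Schwann and meningeal against motor neurons (−0.64). In SOD1G93A mice 62 of the 63 called contrasts kept their sign and 58 were called, the exception being Adgrl3 in motor neurons, at 0.30 in WT and −0.11 in SOD1G93A mice.

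**Figure D5:**
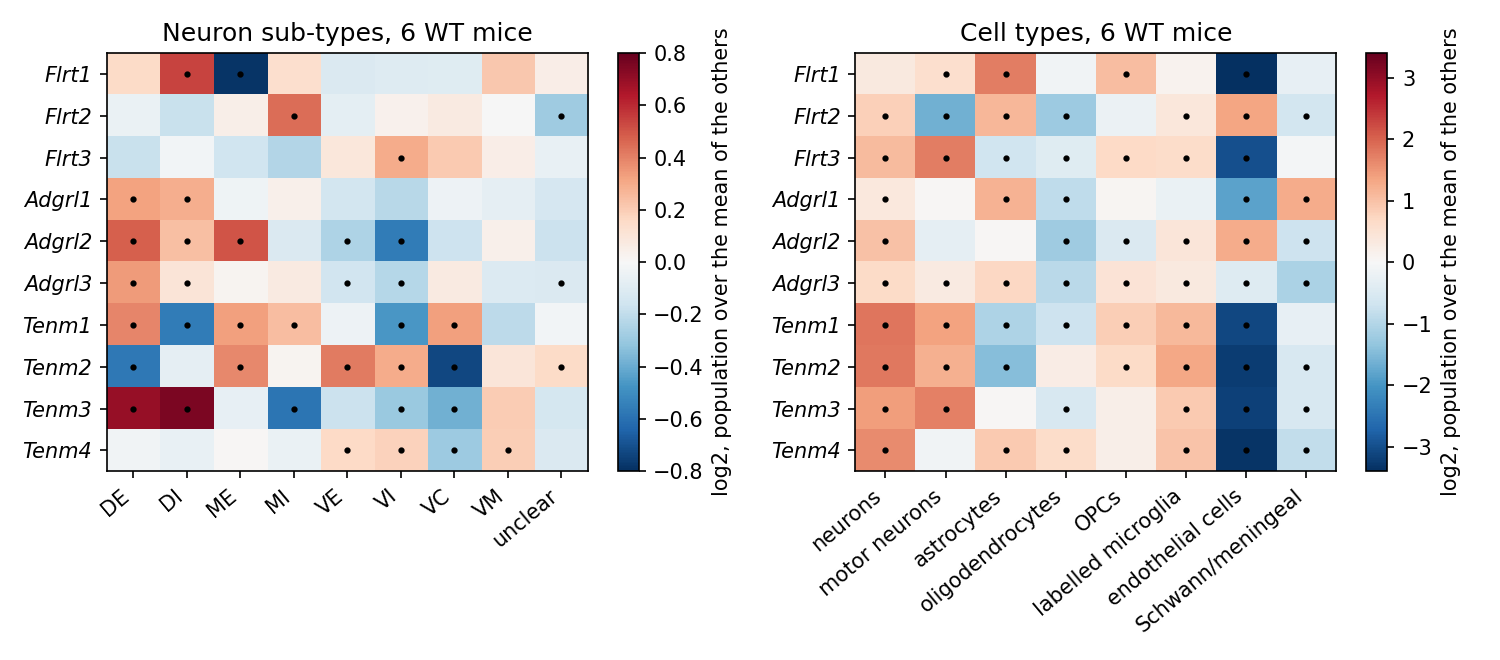
Log2 level of each gene in a population over the mean of the other populations, in 9 neuron sub-types (left, colours from −0.8 to 0.8) and 8 cell types (right, −3.4 to 3.4) of the 6 WT mice, with a dot where the FDR is under 0.1. All 4 teneurins are at their lowest in endothelial cells, where Flrt2 and Adgrl2 are high.

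The genes whose mean log2 level, with 1 CPM added, followed that of a member most closely over 16 populations were taken from 10813 genes. Pearson's r is a description over populations that share mice and depth. For Flrt2 they were Dgkz (r = 0.921), Pced1b (0.909) and Ccdc85a (0.888), for Flrt3 Xkr6 (0.986), Rnf157 (0.982) and Pclo (0.979), and for Flrt1 Slc39a14 (0.920), Frmpd1 (0.907) and Gm10600 (0.902). Among latrophilins they were Gpr162 (0.938), Asphd2 (0.926) and Chst1 (0.921) for Adgrl1, Sorbs2 (0.901) and Pcdh19 (0.875) for Adgrl2, and Gm16054 (0.865), Dgkb (0.860) and A830082K12Rik (0.852) for Adgrl3. For the teneurins they were Lrfn5 (0.982), Nalcn (0.980) and Cntn4 (0.979) with Tenm1, 5330434G04Rik (0.975), Banf2 (0.971) and Gm48893 (0.971) with Tenm2, Gpr158 (0.973), Ptchd4 (0.963) and Dlgap1 (0.961) with Tenm3, and Gm15414 (0.981), Prelid3a (0.978) and Bbof1 (0.971) with Tenm4. Gm16054 overlaps Adgrl3 and Gm15414 overlaps Tenm4 on the opposite strand, and these 2 cannot be told apart from reads of their neighbours.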

How the data were processed

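Nuclei of the lumbar spinal cord of 12 mice were sequenced in 3 pools. Per the labels and the paper, the authors used bcl2fastq 2.20.0.422, Cell Ranger 3.1 with STAR 2.5.1b on a pre-mRNA form of mm10, and R 4.0.3 and Seurat 4.0.3. The deposited counts are UMIs per gene and nucleus without normalization, and mitochondrial genes are not in the table. The deposited percent values are mitochondrial UMIs of each nucleus (at most 9.99). Cell types, sub-types and sub-clusters, mouse, sex, genotype and pool are other columns that the authors deposited. Integrated values that the authors also deposited are not counts and were left aside. Doublets within a mouse are not marked, and the authors removed nuclei with several hashtags.

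Here UMIs were summed per mouse and population and tested with limma 3.58.1 voom (TMMwsp scaling, filterByExpr with a minimum count of 10, robust eBayes, Benjamini-Hochberg adjustment) in R 4.3.3. The fits were checked on simulated data. Pools are the shared preparation named by the authors, and pairs are the mice of 1 sex in 1 pool. Alternatives were edgeR 4.0.16, DESeq2 1.42.0, other filters, no pool or mouse term, trimmed nuclei and leaving out each mouse. CPM are unscaled. Sub-type sums lack the 27 neurons that have no sub-type.

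The members, the gene lists and the tests were chosen with earlier results of these data known. The genes named are the 10 members, fixed partners in DE and motor neurons, list genes that were called, and the 3 genes most like each member, apart from 2 genes that are not reported here. Leaving all neurons, which contain DE neurons, out of the count over cell types, the astrocyte sub-cluster values and the window around Flrt2 were chosen after seeing the data. Promoters are RefSeq's and gene positions those of the mouse GENCODE annotation. UMI totals per mouse in the smallest populations limit precision: motor neurons had 27658 to 651446 UMIs and ependymal cells and fibroblasts had mice with none.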

Additional observations from a re-analysis of the deposited data

Results flagged for a closer look

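In groups of 6 mice, the gap between the highest or lowest mouse and the next, divided by the range of the group, was compared with Dixon's 95% critical value. Of 350 groups 25 (7.14%) held a mouse far from the others, where chance gives about 1 in 20. The female SOD1G93A mouse of pool C stood apart in 7 groups and the female WT mouse of pool A in 5.

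The female SOD1G93A mouse of pool C was lowest for Flrt2 in DE neurons, at 74.9 CPM with the next mouse at 93.2, and highest for Flrt2 in endothelial cells, at 241 CPM with the next at 183. It was also highest for Adgrl1 (54.9 CPM) and Tenm4 (837 CPM) in oligodendrocytes, for Tenm3 in nuclei labelled microglia (1456 CPM) and for Tenm4 in ependymal cells (645 CPM), and lowest for Adgrl3 in OPCs (1173 CPM). Its OPC value rests on 2 nuclei with 11083 UMIs and its ependymal value on 8 nuclei with 21714 UMIs. The female WT mouse of pool A was highest for Flrt2 (161 CPM) and lowest for Adgrl1 (28.8 CPM) and Tenm1 (265 CPM) in OPCs, highest for Adgrl2 in VE neurons (273 CPM) and lowest for Tenm1 in VM neurons (397 CPM).

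Among other SOD1G93A mice, the female of pool A had 2252 CPM of Tenm3 in ME neurons, with the next mouse at 707, 521 CPM of Adgrl2 in VM neurons and, as the lowest, 514 CPM of Tenm1 in unclear neurons. Its VM value rests on 1 nucleus with 26889 UMIs and its ME value on 5 nuclei with 61732 UMIs. The male of pool C was highest for Tenm4 in motor neurons (784 CPM), Tenm1 in DE neurons (1085 CPM) and Tenm3 in VI neurons (1346 CPM). The male of pool B was highest for Adgrl3 in nuclei labelled microglia (2038 CPM) and for Flrt1 in ependymal cells (54.0 CPM, with the others at 0). That ependymal value rests on 12 nuclei with 18512 UMIs of all genes. The male of pool A was highest for Tenm3 in nuclei labelled Schwann and meningeal (394 CPM).

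Among other WT mice, the male of pool C was lowest for Adgrl1 in DE neurons (53.3 CPM), the male of pool A for Adgrl1 in unclear neurons (43.6 CPM) and the female of pool B for Adgrl3 in ME neurons (1736 CPM), and the female of pool C was highest for Tenm3 in unclear neurons (1214 CPM).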

How the results depend on the processing

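For Flrt2 in 16 populations, 289 of 300 alternative values outside the added ones stayed on the same side of the threshold and 11 were newly called. No called value turned its direction, and turns among values that were not called were not counted. In astrocytes Flrt2 was called under every alternative outside the added ones. Calls of the 10 genes over cell types, 1 as reported, were 3 with no filter on counts, 3 when the 5% of nuclei with most UMIs were removed and 1 to 2 with each mouse left out (2 after removal of female WT B, the mouse of pool B, with Adgrl3 in astrocytes as the added gene). In neuron sub-types other than DE, 0 as reported, there was 1 with edgeR, 1 with DESeq2, 1 with no filter, 1 when those 5% of nuclei were removed and 0 to 4 with each mouse left out. Those 4 were Flrt2 in DI, MI, VE and VI neurons after removal of female WT B, and 1 call each came after removal of male WT A, female SOD1G93A B and male SOD1G93A B. Sex calls, 0 as reported, were 1 with no filter (Tenm2 in motor neurons) and 0 to 1 with each mouse left out (Adgrl2 in OPCs after removal of male WT B), and interaction calls 0 to 1 (Tenm2 in unclear neurons after removal of female WT B). The cause was not tested. The Flrt2 level difference in dorsal excitatory neurons was −0.68 to −0.85 with each mouse left out.

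Without the pool as a replicate block the counts stayed at 1, 0, 0 and 0 for cell types, sub-types, sex and interaction, and the Flrt2 level difference in dorsal excitatory neurons was −0.76. The calls of Lrrtm3, Lrrc4c, Nrxn3 and Il1rap were lost without that block and with edgeR, and held in 10, 9, 9 and 6 of 19 alternatives with the same sign in all 19. Without the mouse term, level calls were 29 beside 38 over sub-types and 63 over cell types. Called levels were the same in 405 of 456 alternative values over sub-types and 736 of 756 over cell types, and the direction turned for Adgrl3 in motor neurons (−0.11 in SOD1G93A mice). Of the alternatives added after seeing the data, Flrt2 in astrocyte sub-cluster 4 turned to 0.42. DESeq2 gave no adjusted p for 9 of 504 tests. Few nuclei limit motor neurons, OPCs, ependymal cells and fibroblasts.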

Other observations

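Within 5 Mb on either side of Flrt2, a window chosen after seeing the data, 26 genes were tested in DE neurons with 0 called by limma (0 at an unadjusted p under 0.05). In astrocytes 23 were tested and 2 called, where 2.29% of all 9347 genes were, 4930544I03Rik lower (log2 −1.05, SE 0.20, limma FDR 0.00699) and Gm19951 higher (0.84, SE 0.21, FDR 0.0524). Both genes were named after their values were seen.

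In nuclei labelled fibroblasts, which rest on 22 WT and 24 SOD1G93A nuclei and of which the WT ones held 301 CPM of fibroblast markers beside 1672 CPM of oligodendrocyte markers, Flrt2 had medians of 1023 CPM in WT and 921 CPM in SOD1G93A mice, with a range of 0 to 1238 and 43.7 to 3789 CPM. In ependymal cells (55 and 38 nuclei) Tenm3 was 1149 to 2533 CPM in WT mice (median 1341) and 681 to 2021 CPM in SOD1G93A mice (median 1338), and Flrt2 ranged from 41.3 to 488 and 0 to 311 CPM. These types did not enter the comparison of levels because some mice had no nuclei of them.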
